A study of Mus musculus with 4 samples.

Results

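*Gramd1b*, *Snx29*, *Rnf24*, *Fhit* and *Gpm6a* are 5 of the 19632 gene rows measured in nuclei of mouse kidney. They were chosen by measured values, as lying among the largest falls in the injured proximal tubule clusters, InjuredPT-A or InjuredPT-B, against the 5 normal proximal tubule clusters in both mice given aristolochic acid I (AAI). That contrast is therefore given as a description and supports nothing by itself. *Gramd1b* was place 1 and *Snx29* place 5 among falls in InjuredPT-A, and *Rnf24*, *Fhit* and *Gpm6a* were places 2, 4 and 5 in InjuredPT-B. The question followed here is which normal clusters and which mice those falls were measured against, and how the 5 genes stood in clusters and mice that the choice did not use.

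AAI is a plant toxin that proximal tubule cells take up and that forms DNA adducts, and KLF6 is a zinc finger transcription factor induced early in kidney injury. Single nucleus RNA sequencing was done on kidney cortex of 4 male mice of mixed background, 1 mouse per condition, at ages not given in the sources used here. Control mice carried the TRE-hKLF6 transgene alone, and hKLF6OE mice carried CAG-rtTA with TRE-hKLF6, so that human KLF6 could be induced throughout the body. All 4 mice, the controls included, were fed doxycycline for 1 week. Of each genotype, 1 mouse was injected once with AAI at 2 mg/kg, 24 hours before it was killed, and 1 mouse had no treatment by its labels. Whether the untreated mice received the vehicle, DMSO, is not given for these mice, so an effect of vehicle or injection cannot be told apart from AAI. The transgene has no row of its own, so its level was not checked here.

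Each value is the mean over the nuclei that 1 mouse had in 1 cluster, of counts rescaled to a total of 10000 per nucleus, and is called a level below. Each of the 92 columns, 23 clusters in 4 mice, summed to 10000. Neither depth nor the number of nuclei per column was in the table, so no interval is given. Every difference below is between single mice, the spread between mice of 1 condition could not be measured, and no test between conditions was made. Changes are differences of log2(level + 1), which understate the change of low genes, and a change of 0.2 or more was counted, as higher or lower, where the larger of both levels reached 0.5. Levels were not divided by gene length and are compared within a gene, not between genes.

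The proximal tubule reabsorbs most of the filtered solutes, and its straight last part, the S3 segment, runs down into the outer medulla. *Gramd1b* encodes Aster-B, which carries cholesterol from the plasma membrane to the endoplasmic reticulum. *Snx29* encodes a sorting nexin, a family of phosphoinositide-binding proteins of endosomal traffic, *Rnf24* a membrane RING finger protein, *Fhit* a hydrolase of diadenosine phosphates that is known as a tumour suppressor at a common fragile site, and *Gpm6a* a membrane glycoprotein best known from neurons.

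The cluster names were checked against their markers. The 4 proximal tubule markers (*Lrp2*, *Slc34a1*, *Slc5a12* and *Slc5a2*) and the 4 S3 markers (*Cyp7b1*, *Slc7a13*, *Acsm3* and *Atp11a*) each had their highest mean in a normal proximal tubule cluster, and the S3 markers had it in PT-S3-2. The summed level of the 5 injury markers (*Havcr1*, *Krt20*, *Cxcl1*, *Polr2a* and *Klf6*) was 36.7 and 32.7 in InjuredPT-A and 10.96 and 13.8 in InjuredPT-B of the control and hKLF6OE mice with AAI, and 1.09 to 2.26 in the same clusters without injury. Most of the sum in InjuredPT-A was *Polr2a*, an RNA polymerase II subunit, at 24.3 and 23.3. *Havcr1*, the usual marker of proximal tubule injury, was near 0 there, at 0.139 and 0.133, and 0.270 and 1.26 in InjuredPT-B, while in the normal clusters it was at most 0.204. In those uninjured columns 40.8% to 62.6% of genes were at 0, against 22.2% to 29.7% with AAI, so the injured clusters of uninjured mice are read with caution. The clusters were made from the same expression values, so a gene that differs between clusters may have helped to define them.

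In InjuredPT-A, the mean level of the 5 normal clusters was compared with the injured cluster of the same mouse. *Gramd1b* was 2.68 in InjuredPT-A against 33.7 in the normal clusters of the control AAI mouse, and 3.66 against 44.6 in the hKLF6OE AAI mouse, differences of -3.24 and -3.29. *Snx29* was 2.18 against 20.3 and 2.11 against 17.9, differences of -2.74 and -2.61. In both mice *Snx29* was lower in InjuredPT-A than in any of the other 22 clusters. *Rnf24*, at 1.60 against 11.27 and 1.94 against 7.68, differed by -2.24 and -1.56. *Fhit* was 1.17 against 8.91 and 2.80 against 9.93, differences of -2.19 and -1.52, and was lower in InjuredPT-A than in the other 22 clusters in the control AAI mouse alone. *Gpm6a* was 0.362 against 3.19 and 0.818 against 4.34, differences of -1.62 and -1.55. Thus 5 of 5 were counted as lower, where 27.0% of 5008 genes were, and 5 of 5 were lower by 1 or more in both mice, where 5.27% were. *Rnf24*, *Gpm6a* and *Fhit* were places 75, 79 and 85 there. The genes around the first places were *Ghr*, *Esrrg* and *Pde4d* at places 2 to 4, and *Lrmda*, at place 6 with -2.64 and -2.60, lay just outside.

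In InjuredPT-B the order of the 5 genes was different. *Rnf24* was 1.26 and 1.07 in the control and hKLF6OE AAI mice, against the same normal means, which is -2.44 and -2.07. *Fhit* was 2.23 and 2.44 (-1.62 and -1.67) and *Gpm6a* 0.398 and 0.629 (-1.58 and -1.71). *Gramd1b*, at 8.25 and 15.7, differed by -1.91 and -1.45 and was place 9. *Snx29*, at 10.0 and 9.94, differed by -0.95 and -0.79 and was place 70. Here 5 of 5 were lower, where 13.1% of 4148 genes were, and 4 of 5 by 1 or more in both mice, where 0.771% were. *Cyp7b1* and *Slc5a12*, markers of the S3 and the earlier segments, were places 1 and 3, and *Ctnna2*, at place 6 with -1.54 and -1.66, lay just outside. InjuredPT-A minus InjuredPT-B was -1.79 and -1.82 for *Snx29* and -1.33 and -1.84 for *Gramd1b*, where 26.7% of 4977 genes were lower in both mice. It was 0.20 and 0.51 for *Rnf24*, under the threshold in the control AAI mouse, and -0.58 and 0.14 for *Fhit*, and *Gpm6a* passed the filter in the hKLF6OE AAI mouse alone, with 0.16.

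**Figure D1:**
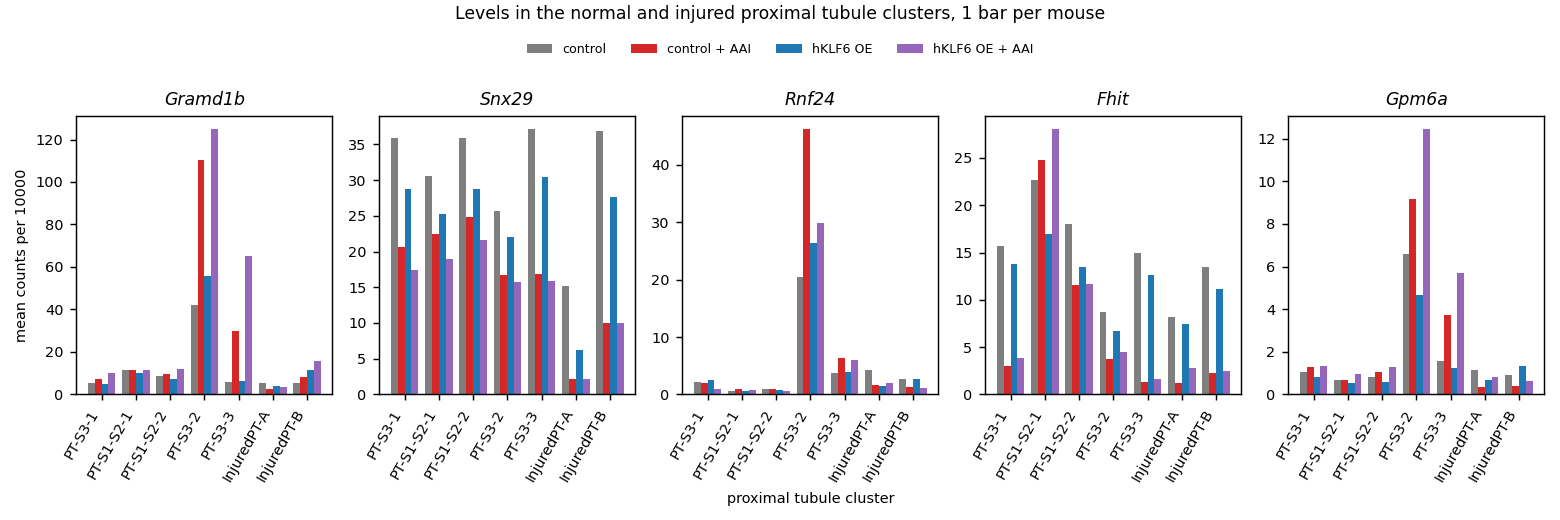
Levels of the 5 genes (mean counts per 10000, linear axes from 0, a scale of its own for each gene) in the 5 normal and 2 injured proximal tubule clusters, with 1 bar per mouse. *Gramd1b*, *Rnf24* and *Gpm6a* stand highest in PT-S3-2 in all 4 mice, *Snx29* is spread evenly over the normal clusters, and *Fhit* is highest in PT-S1-S2-1.

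The normal mean hid 3 different patterns across the 5 normal clusters. For *Gramd1b*, *Rnf24* and *Gpm6a* it was set mostly by PT-S3-2. That cluster held 55.9% to 66.6% of the summed level of *Gramd1b* over the 5 normal clusters in the 4 mice, 73.6% to 82.0% of that of *Rnf24* and 57.4% to 61.8% of that of *Gpm6a*. *Snx29* was spread evenly, with 15.5% to 17.5% in PT-S3-2. *Fhit* without injury ran from 10.9% and 10.6% in PT-S3-2 to 28.3% and 26.7% in PT-S1-S2-1, and with AAI PT-S1-S2-1 held 55.7% and 56.4%.

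The injured clusters were therefore set against each normal cluster alone. *Snx29* was lower than each of the 5 normal clusters in InjuredPT-A, with differences from -3.03 to -2.43, and in InjuredPT-B, from -1.23 to -0.61. *Gramd1b* was lower than 5 of 5 in InjuredPT-A, from -4.92 against PT-S3-2 to -1.17 against PT-S3-1. In InjuredPT-B *Gramd1b* was lower than PT-S3-2 and PT-S3-3, and against the other 3 clusters it was not counted in either direction. Its InjuredPT-B level in the hKLF6OE AAI mouse, 15.7, lay above the 10.1, 11.5 and 11.7 of PT-S3-1, PT-S1-S2-1 and PT-S1-S2-2.

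*Rnf24* was lower than PT-S3-2 and PT-S3-3 and higher than both PT-S1-S2 clusters in InjuredPT-A. There it was 1.60 and 1.94, against 0.877 and 0.826 in PT-S1-S2-1 and 0.911 and 0.662 in PT-S1-S2-2. In InjuredPT-B it was lower than 2 clusters, higher than PT-S1-S2-2 by 0.24 and 0.31, and not counted against the other 2. Without PT-S3-2 in the mean, the differences of *Rnf24* in InjuredPT-A were -0.45 and -0.10, and it was no longer counted as lower. *Gpm6a* was lower than 4 of 5 clusters in InjuredPT-A and 5 of 5 in InjuredPT-B, with differences from -0.76 to -0.09 against PT-S3-1 and the PT-S1-S2 clusters and from -3.04 to -1.76 against PT-S3-2 and PT-S3-3.

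*Fhit* was lower than 4 of 5 clusters in both injured clusters, with -3.57 and -2.93 against PT-S1-S2-1 in InjuredPT-A and -3.00 and -3.08 in InjuredPT-B. PT-S3-3 was the exception. In the AAI mice *Fhit* was 1.35 and 1.66 in PT-S3-3, a normal cluster by name, and InjuredPT-B lay above it by 0.46 and 0.37. Of all genes, 25.5%, 25.3%, 25.5%, 25.3% and 25.8% were lower in InjuredPT-A than PT-S3-1, PT-S1-S2-1, PT-S1-S2-2, PT-S3-2 and PT-S3-3, and 11.04%, 15.1%, 13.6%, 14.7% and 11.7% in InjuredPT-B. Higher than both PT-S1-S2 clusters in InjuredPT-A were 43.2% and 44.3%, and in InjuredPT-B 26.4% were higher than PT-S1-S2-2 and 21.8% than PT-S3-3.

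**Figure D2:**
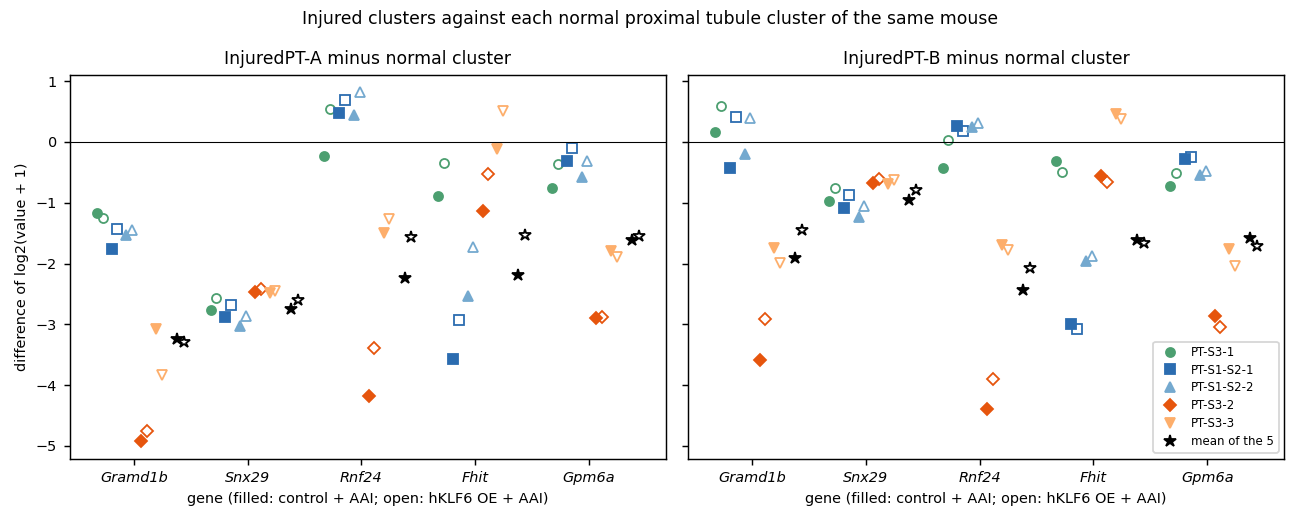
InjuredPT-A (left) or InjuredPT-B (right) minus each normal proximal tubule cluster of the same AAI mouse, as differences of log2(level + 1), with 1 point per cluster and mouse and stars for the mean of the 5 clusters. The points of *Snx29* lie close together and below 0, those of *Rnf24* run from -4.38 to 0.82 on both sides of 0, and the star of a gene can lie far from most of its points.

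The uninjured mice were not used by the choice of genes. Compared with them, the normal clusters of the AAI mice had moved for each of the 5 genes. *Gramd1b* in PT-S3-2 was 42.2 in the control mouse and 110 with AAI, and 55.7 in the hKLF6OE mouse and 125 with AAI, rises of 1.36 and 1.15. In PT-S3-3 it was 5.99 and 30.0 in the control genotype and 6.25 and 65.1 in hKLF6OE, rises of 2.15 and 3.19 that were place 2 of 4210 and of 4254 rises. Both AAI mice lay above both uninjured mice in each of the 5 normal clusters. The share of all genes separated in this way was not computed, and the clusters come from the same 4 mice. The margin was small in PT-S1-S2-1, where control and hKLF6OE were 11.32 and 9.88 without AAI and 11.48 and 11.51 with it.

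The markers of PT-S3-3 moved beside these rises. *Cyp7b1* was 0.746 and 11.5 in the control genotype and 1.22 and 20.1 in hKLF6OE, without and with AAI, and the summed S3 markers were 36.0 and 46.4, and 28.1 and 51.2. The summed proximal tubule markers were 81.3 and 26.8, and 58.5 and 24.6. A change in which nuclei were placed in a cluster and a change of level in each nucleus cannot be told apart in these averages. In PT-S3-2, where the S3 markers summed to 82.0 and 102 in the control genotype and 81.9 and 102 in hKLF6OE, the part of the markers in the rise of *Gramd1b* was not tested.

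*Snx29* moved the other way. It was 25.7 to 37.1 in the 5 normal clusters of the control mouse and 16.7 to 24.9 with AAI, and 22.04 to 30.4 in the hKLF6OE mouse and 15.7 to 21.6 with AAI. It was lower in 5 of 5 clusters in both genotypes, from -1.09 to -0.43 and from -0.89 to -0.39, where 12.5% to 18.6% and 16.02% to 20.97% of genes per cluster were lower. The levels in the uninjured mice did not overlap those in the AAI mice, in the control genotype or in hKLF6OE. For this separation too the share over all genes was not computed. So the reference against which *Snx29* was low in the injured clusters was itself lower than in uninjured mice. Against the uninjured mouse of the same genotype, the differences in InjuredPT-A were -3.42 and -3.17.

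*Fhit* was lower with AAI in the S3 clusters and not in PT-S1-S2-1. In PT-S3-3 it was 14.99 and 1.35 in the control genotype, the first of 4210 falls, and 12.6 and 1.66 in hKLF6OE, the third of 4254. In PT-S3-1 it was 15.7 and 3.04, and 13.8 and 3.86, differences of -2.05 and -1.60. In PT-S3-2 it was 8.74 and 3.79, and 6.75 and 4.46. So with AAI *Fhit* was 1.35 to 4.46 in the 3 PT-S3 clusters and 1.17 to 2.80 in the injured clusters. In PT-S1-S2-2 it was 18.01 and 11.6, and 13.5 and 11.7, differences of -0.59 and -0.20. In PT-S1-S2-1 *Fhit* was 22.7 and 24.8, and 16.95 and 28.0, so that the AAI mice lay above the uninjured mice.

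*Rnf24* in PT-S3-2 was 20.6 in the control mouse, 46.2 with AAI, 26.4 in hKLF6OE and 29.8 with AAI. The rise was 1.13 in the control genotype, place 6 of 4003, and 0.17 in hKLF6OE, under the threshold. In PT-S3-3 it was 3.81 and 6.30, and 3.90 and 6.06, and in PT-S3-1 2.11 and 2.06, and 2.43 and 1.02. The difference of -0.77 in PT-S3-1 of hKLF6OE came with other values of the segment markers: the S3 markers there summed to 21.2 without and 7.52 with AAI, and *Slc5a12* was 2.59 and 24.4. Their part in it was not tested. *Gpm6a* was higher with AAI in PT-S3-2, at 6.57 and 9.16 in the control genotype and 4.68 and 12.4 in hKLF6OE, and in PT-S3-3, at 1.55 and 3.75, and 1.23 and 5.72. In each of the 5 normal clusters both AAI mice lay above both uninjured mice for *Gpm6a*, a separation whose share over all genes was not computed. The 5 clusters come from the same 4 mice, and the choice of genes favoured high levels with AAI.

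In the mean of the 5 normal clusters, *Snx29* and *Fhit* were lower with AAI in both genotypes, with differences of -0.68 and -0.78 in control and of -0.57 and -0.33 in hKLF6OE. That is 2 of 5 genes in each, where 11.25% and 15.4% of genes were lower. *Gramd1b* and *Gpm6a* were higher in both genotypes, and *Rnf24* in the control genotype, where 11.7% and 19.5% of genes were higher. The choice of genes used the AAI side of this comparison as its reference, which favours genes that are high there.

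**Figure D3:**
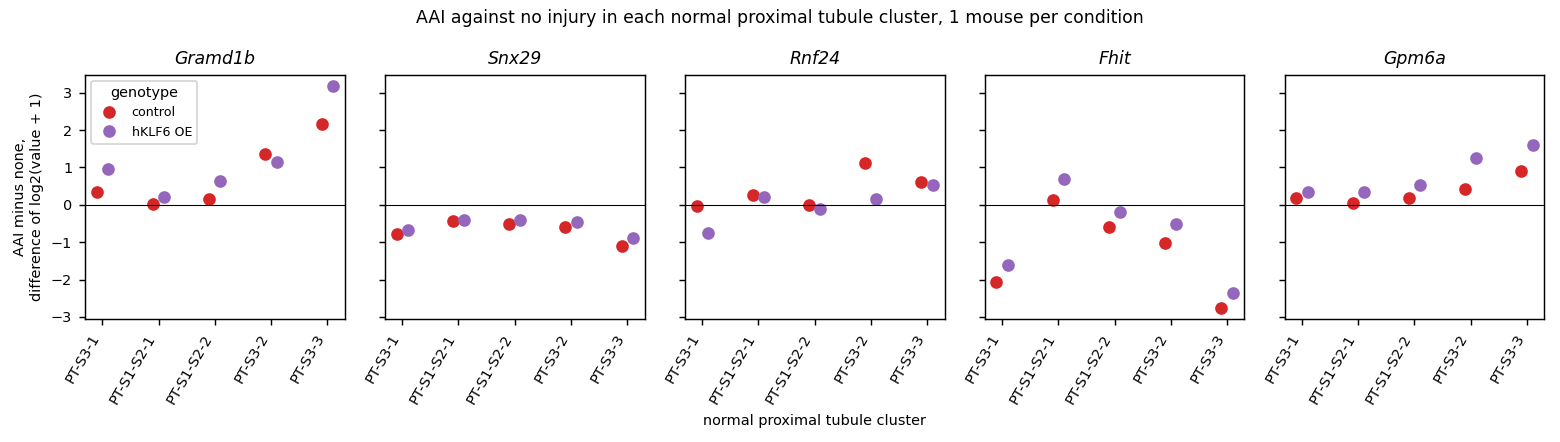
AAI minus no injury, as the difference of log2(level + 1), in the 5 normal clusters one by one, with 1 point per genotype from 1 mouse per condition. All points of *Snx29* lie below 0 and all of *Gramd1b* and *Gpm6a* above it, while *Fhit* runs from -2.77 in PT-S3-3 to 0.69 in PT-S1-S2-1.

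The nuclei placed in the injured clusters of uninjured mice were also compared. *Snx29* was 36.9 and 27.7 in InjuredPT-B of the uninjured control and hKLF6OE mice, as high as in their normal clusters, and 10.0 and 9.94 with AAI. *Fhit* was 13.5 and 11.11 there without injury and 2.23 and 2.44 with AAI, and in InjuredPT-A it was 8.19 and 7.39 against 1.17 and 2.80. *Rnf24* in InjuredPT-A was 4.29 and 1.48 without injury and 1.60 and 1.94 with AAI, which are opposite directions in the genotypes. *Gramd1b* in InjuredPT-B was 5.42 and 11.5 without injury and 8.25 and 15.7 with AAI, higher in hKLF6OE than in control by 0.96 and 0.85. In these clusters 36.8% and 28.5% of genes were lower with AAI in the control genotype, and 30.5% and 32.9% in hKLF6OE, for InjuredPT-A and InjuredPT-B.

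hKLF6OE and control were compared without injury, in mice that the choice did not use. In the mean of the normal clusters *Snx29* was 33.1 in the control and 27.0 in the hKLF6OE mouse (-0.28), *Fhit* 16.03 and 12.7 (-0.31), and *Gpm6a* 2.13 and 1.56 (-0.29). These 3 of 5 genes were lower, where 9.33% of 4041 genes were. *Rnf24*, at 5.59 and 6.83, was higher by 0.25, where 7.84% of genes were higher, and *Gramd1b*, at 14.7 and 16.7, differed by 0.17 and was not counted, and by -0.15 without PT-S3-2. *Gpm6a* without PT-S3-2 differed by -0.17 and was no longer counted. *Snx29* was lower in 5 of 5 normal clusters, from -0.32 to -0.21, and *Fhit* in 4 of 5. At a threshold of 0.5, 0 of these differences were counted.

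With AAI in both mice, *Rnf24* was lower in hKLF6OE, at 11.27 in the control and 7.68 in the hKLF6OE mouse (-0.50), where 7.74% of genes were lower. Without PT-S3-2 it was not counted as lower. *Gramd1b*, at 33.7 and 44.6, and *Gpm6a*, at 3.19 and 4.34, were higher in hKLF6OE by 0.39 and 0.35, where 6.32% of genes were higher. In PT-S3-3 *Gramd1b* was 30.0 and 65.1, place 2 of 4120 rises. *Snx29* differed by -0.17 and *Fhit* by 0.14 in the mean of the normal clusters, and neither was counted. The control mice of these comparisons are also those of the AAI comparisons.

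Over all 23 clusters the order of the levels differed by gene. *Gramd1b*, *Rnf24* and *Gpm6a* had their highest mean over the 4 mice in PT-S3-2, at 83.2, 30.7 and 8.21. *Snx29* was highest in PT-S1-S2-2 at 27.8, followed by the other PT-S3 and PT-S1-S2 clusters and InjuredPT-B. *Fhit* was highest in PT-S1-S2-1 at 23.1, followed by the loop of Henle clusters LH-AL-2 and LH-AL-1 at 13.98 and 13.9. Of 22 pairs of neighbours in the order of each gene, the ranges over the 4 mice overlapped in all but 1 pair for *Rnf24*, PT-S3-2 against DCT_CNT, and 1 for *Snx29*, DCT_CNT against macrophages. These ranges pool AAI and genotype and ignore that each mouse has a value in every cluster. An overlap therefore does not show that neighbours were alike within a mouse. For *Gramd1b* and *Gpm6a* the range of PT-S3-2 overlapped that of PT-S3-3, the next in order, yet PT-S3-2 ranked first in each of the 4 mice. The other pairs were not compared within each mouse. How often neighbours overlap over all genes was not computed.

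Outside the proximal tubule, *Gramd1b* had a median over the 16 clusters of 1.52 to 2.97 in the 4 mice, *Snx29* of 4.00 to 6.56, *Rnf24* of 0.680 to 1.10, *Fhit* of 4.17 to 8.17 and *Gpm6a* of 0.337 to 0.659. By the mean of the 4 mice, EC-1 and DCT_CNT were the highest of these clusters for *Snx29* and *Gramd1b*, at 12.6 to 25.2 for *Snx29* and 8.60 to 23.5 for *Gramd1b* in EC-1. These clusters, named for endothelium and for distal and connecting tubule, also held proximal tubule markers. The 4 markers summed to 56.7 to 78.0 in EC-1 and 49.2 to 68.1 in DCT_CNT, against 25.9 to 38.8 in PT-S3-2 and 9.23 to 14.1 in DCT, with none of the 4 at 0 in EC-1 or DCT_CNT of any mouse. The part of such RNA in the levels of the 5 genes was not tested.

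AAI was also followed in these 16 clusters, which the choice did not use. *Snx29* was lower with AAI in 16 of 16 in the control genotype, from -1.03 to -0.23, and in 8 of 16 in hKLF6OE, where 3 were higher. *Fhit* was lower in 14 of 16 in both genotypes, with medians of -0.73 and -0.64. *Gramd1b* was higher in 8 of 16 and lower in 3 in the control genotype, and higher in 12 of 16 and lower in 0 in hKLF6OE. *Rnf24* was higher in 10 and 7 clusters and lower in 1 and 2, and *Gpm6a* passed the filter in 8 and 10 clusters, of which 3 and 6 were higher and 4 and 0 lower. Per cluster, 12.03% to 43.4% of genes were lower in the control genotype and 14.9% to 43.9% in hKLF6OE, and 17.3% to 43.6% and 22.3% to 42.1% were higher, with the high shares in clusters where many genes were at 0, such as LH-AL-3, LH-DL and macrophages. In DCT, where 12.03% and 16.2% of genes were lower, *Fhit* was 14.6 and 6.87 in the control genotype and 13.01 and 5.69 in hKLF6OE, and *Snx29* was 3.71 and 3.02, and 3.31 and 3.68. Proximal tubule markers moved in DCT as well. The 4 summed to 14.1 without and 9.82 with AAI in the control genotype, and 14.1 and 9.23 in hKLF6OE. *Slc34a1* alone was 8.43 and 5.16, and 8.74 and 4.59, while *Slc5a12* was 2.14 and 2.30, and 2.20 and 2.12. The part of proximal tubule RNA in the changes outside the proximal tubule was not tested. The clusters share their 4 mice and are not replicates.

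**Figure D4:**
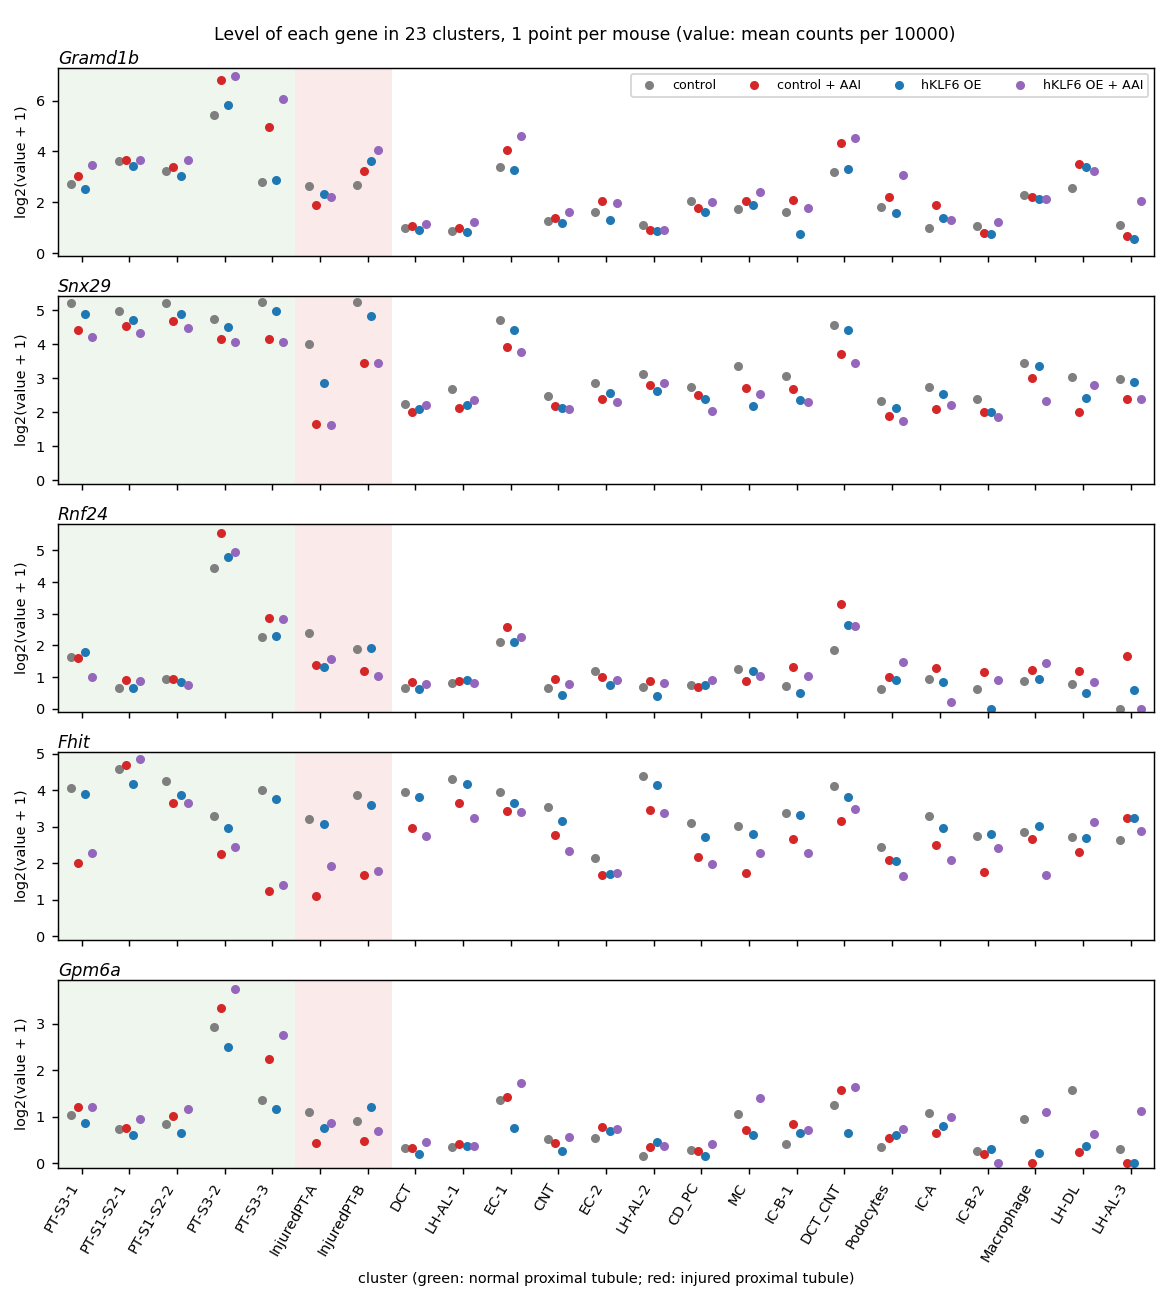
Level of each gene as log2(level + 1) in the 23 clusters, with 1 point per mouse. The normal clusters are shaded green and the injured clusters red, and EC-1 and DCT_CNT rise above the other clusters outside the proximal tubule for *Gramd1b* and *Snx29*.

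*Rnf24* and *Gpm6a* had the most alike levels of the 5 genes, with Pearson's r of 0.940 over the 23 cluster means of log2(level + 1), and *Gramd1b* had r of 0.897 with *Gpm6a* and 0.845 with *Rnf24*. *Fhit* had low r with 3 of the genes, -0.01 with *Rnf24*, 0.02 with *Gpm6a* and 0.16 with *Gramd1b*, and r of 0.51 with *Snx29*. *Snx29* had r of 0.55 with *Rnf24*, 0.63 with *Gpm6a* and 0.80 with *Gramd1b*. Over the means of the uninjured mice, *Fhit* had r of 0.11, 0.02, 0.18 and 0.52 in the same order, and *Rnf24* with *Gpm6a* 0.915. The clusters share libraries, so these are descriptions. Among all genes, the most alike were *Slc16a9*, *Slc6a15* and *Fads2* for *Gramd1b* (r of 0.950, 0.930 and 0.929), *A1cf*, AC154546.2 and *St8sia1* for *Snx29* (0.976, 0.972 and 0.968), *C8a*, *Slc22a19* and *Akr1d1* for *Rnf24* (0.965, 0.960 and 0.959), *Gm16685*, *Abhd17c* and *Baiap2l2* for *Fhit* (0.854, 0.836 and 0.835), and *Akr1d1*, *Wdr17* and *Gm4450* for *Gpm6a* (0.952, 0.952 and 0.948). *Akr1d1* was thus in the first 3 for both *Rnf24* and *Gpm6a*. Over all 92 columns, 6 of these 15 genes stayed in the first 3, and by Spearman's rho 2 did.

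Since *Rnf24* and *Gpm6a* had like levels, their promoters are shown, from 250 bases before to 50 after the start in RefSeq (GRCm38.p6), 5′ to 3′ on the strand of the gene. Capitals mark matches, on either strand, to GGGCGG (the GC box of the Sp and KLF families), CACCC (KLF), GTTAAT (a half-site of HNF1), CAAAGTCCA (HNF4) and TGACTCA (AP-1). The *Rnf24* promoter lies at chr2:131352843-131353142 on the minus strand, and *Gpm6a* has an upstream start, chr8:54779184-54779483, and a downstream start, chr8:54954478-54954777, both on the plus strand.
Rnf24: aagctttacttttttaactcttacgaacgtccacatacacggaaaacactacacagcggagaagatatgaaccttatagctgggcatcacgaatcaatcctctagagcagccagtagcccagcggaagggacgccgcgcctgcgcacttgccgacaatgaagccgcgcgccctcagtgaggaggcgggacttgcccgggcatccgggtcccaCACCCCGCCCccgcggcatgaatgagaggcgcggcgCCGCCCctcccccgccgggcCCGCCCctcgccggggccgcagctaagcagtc
Gpm6a upstream: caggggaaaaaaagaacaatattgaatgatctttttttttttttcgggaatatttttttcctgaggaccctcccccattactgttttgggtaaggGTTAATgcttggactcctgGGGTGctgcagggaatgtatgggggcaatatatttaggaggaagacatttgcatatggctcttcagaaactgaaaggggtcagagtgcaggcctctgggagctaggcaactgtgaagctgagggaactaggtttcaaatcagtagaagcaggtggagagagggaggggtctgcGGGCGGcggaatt
Gpm6a downstream: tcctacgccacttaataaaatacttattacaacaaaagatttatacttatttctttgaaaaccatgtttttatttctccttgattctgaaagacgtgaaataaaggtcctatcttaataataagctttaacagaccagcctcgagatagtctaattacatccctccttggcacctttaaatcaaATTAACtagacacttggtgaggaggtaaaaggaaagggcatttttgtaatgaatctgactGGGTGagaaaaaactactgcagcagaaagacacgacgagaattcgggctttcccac
The *Rnf24* promoter held 3 GC boxes and 1 CACCC, which overlaps 1 of the GC boxes. Each *Gpm6a* promoter held 1 GTTAAT and 1 CACCC, and the upstream one also 1 GC box. None of the 3 held CAAAGTCCA or TGACTCA. Of 32851 promoters of this length, 35.7% held GGGCGG, 57.5% CACCC, 7.10% GTTAAT, 0.475% CAAAGTCCA and 5.20% TGACTCA. The promoters of *Snx29* and *Fhit*, with 2 starts each, held no GTTAAT, and neither did that of *Rnf24*. For *Snx29*, 1 promoter held 2 GGGCGG, and the other held 3 CACCC and 1 TGACTCA. Each *Fhit* promoter held 1 GGGCGG and 1 CACCC. A match of letters is not a binding site.

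Genomic span was not itself used by the choice, and 4 of the 5 genes were over 100 kb. Falls went with span in these data, so the spans of genes chosen by their fall are a description. Of the genes lower in InjuredPT-A, 777 were over 100 kb, 437 from 30 to 100 kb and 125 under 30 kb. In InjuredPT-B these were 291, 150 and 99. In the GENCODE annotation of GRCm38, *Gramd1b* spans 238 kb at chr9:40293233-40531383 on the minus strand, *Snx29* 433 kb at chr16:11322908-11755472 on the plus strand and *Rnf24* 54.8 kb at chr2:131298064-131352892 on the minus strand. *Fhit* spans 1612 kb at chr14:9550092-11162035 on the minus strand, the 12th longest of 19315 gene rows with a span, and its exons cover 0.0925% of it. *Gpm6a* spans 106 kb at chr8:54954843-55060871 on the plus strand in that annotation and 281 kb in RefSeq, which holds the upstream start. *Rnf24* was the exception, between 30 and 100 kb. Among the genes with a span that passed the filter, 21.8% in InjuredPT-A and 26.0% in InjuredPT-B were over 100 kb, and 38.1% and 44.7% between 30 and 100 kb. Reads were counted on whole transcripts with introns, so longer genes offer more sequence to count.

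In InjuredPT-A, 71.7% of genes over 100 kb were lower than in the normal clusters, against 23.1% from 30 to 100 kb and 6.27% under 30 kb, and in InjuredPT-B the shares were 27.2%, 8.16% and 8.20%. *Rnf24* is on the opposite strand of *Pank2* where they overlap, and *Pank2* had at most 1.66 in any column. The overlapping antisense genes with a row, 1700110K17Rik in *Gramd1b*, *Gm4279* in *Snx29*, and *Gm48439* and *Fhitos* in *Fhit*, had at most 1.79, 0.0937, 0.0132 and 0.217.

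**Figure D5:**
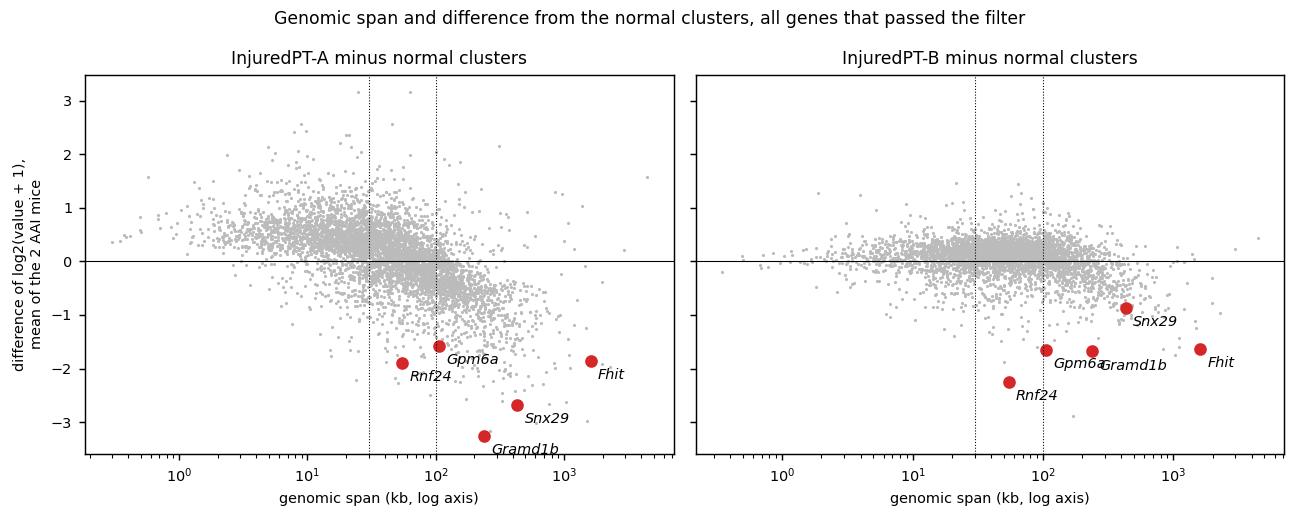
Genomic span (kb, log axis) against the difference of log2(level + 1) from the normal clusters, as the mean of the 2 AAI mice, for all genes that passed the filter (grey) and the 5 genes (red), with dotted lines at 30 and 100 kb. In InjuredPT-A (left) the cloud falls with span. The 5 genes, chosen by their falls, lie in the lower part of both panels. *Snx29* lies less far down in InjuredPT-B (right), where it was place 70 among falls.

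Genes related to the 5 by family or site were counted in the same contrast. Of the large genes of common fragile sites other than *Fhit*, 10 passed the filter, and 9 were lower and 0 higher in InjuredPT-A, where 71.7% of genes over 100 kb were lower. *Macrod2* was 0.992 against 7.44 and 1.35 against 6.98, *Auts2* 1.57 against 9.11 and 2.20 against 11.7, and *Park2* 0.585 against 4.07 and 0.979 against 3.24. In InjuredPT-B 8 of 10 were lower and 0 higher, where 27.2% of genes over 100 kb were lower. With AAI, in the mean of the normal clusters and with *Fhit* counted, 7 of 12 were lower and 0 higher in the control genotype, and 6 of 12 lower and 3 higher in hKLF6OE, beside the 11.25% and 15.4% of all genes that were lower. The share among genes over 100 kb was not computed for AAI against no injury. Whether the list differed there from other long genes was therefore not tested.

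The relatives of the other genes gave mixed counts. Without *Snx29*, 17 sorting nexins passed. InjuredPT-A had 5 of them higher and 7 lower, and InjuredPT-B had 8 higher and 0 lower. *Snx18* was 2.14 against 0.776 and 1.55 against 0.630 in InjuredPT-A, differences of 0.82 and 0.64, and *Snx7* was 1.79 against 2.40 and 1.59 against 3.01, differences of -0.28 and -0.63. Of the sterol transfer and cholesterol genes other than *Gramd1b*, 4 of 5 were higher in InjuredPT-A and 4 of 7 in InjuredPT-B, and 0 were lower. *Insig1*, a sterol sensor, was 0.588 against 0.115 and 0.660 against 0.0986 in InjuredPT-A. *Insig1* and *Npc2* reached the filter there through the injured cluster alone, so they could not have been counted as lower. The same held for *Npc2* and *Abca1* in InjuredPT-B. The list with *Rnf24* was of PA-RING and RNF24-like ubiquitin ligases. Of its genes other than *Rnf24*, 3 of 6 were higher and *Znrf3* lower in InjuredPT-A, at 0.619 against 1.52 and 0.823 against 1.71, and 0 of 5 were counted in InjuredPT-B. Of the histidine triad genes *Hint1* alone passed beside *Fhit*, and it was higher in InjuredPT-A by 0.59 and 0.66. *Snx16* and *Rnf167*, both higher in InjuredPT-A, also reached the filter through that cluster alone. In InjuredPT-B the same held for *Snx16*, at 0.670 against 0.392 and 0.703 against 0.468, and for *Snx4* in the control AAI mouse. Both are among the 8 sorting nexins higher in InjuredPT-B and could not have been counted as lower there. In InjuredPT-A 43.3% of all genes were higher, and in InjuredPT-B 23.4%.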

How the data were processed

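Single nucleus RNA sequencing of kidney cortex from 4 mice was used, 1 per condition. The deposited table holds signal values that the authors computed as cluster means per mouse, after rescaling every nucleus to a total of 10000 counts. Before that, per the study's methods, all libraries were prepared together as 1 batch, reads were counted with Cell Ranger 3.1.0 on a mouse pre-mRNA reference (mm10), and Seurat 4.3 left out nuclei with fewer than 200 or more than 6000 genes or over 10% mitochondrial reads, and clustered the rest with 30 components at a resolution of 0.8. Doublet removal is described for the chromatin data. Cluster names follow the order of the sheets of the study's marker table and are less sure for clusters without a sheet here, InjuredPT-B among them.

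Of 19632 gene rows, 23 with date-like names were left out. Differences are of log2(value + 1), for genes reaching 0.5 on either side, counted from 0.2, the fold threshold of the study's methods, and in both AAI mice for the injured clusters. The reference was the unweighted mean of 5 normal clusters of the same mouse. Depth and the number of nuclei were not given per column, so no interval is given. With 1 mouse per condition no test was made. The genes and gene lists were chosen with earlier results of these data known. Genes named are the 5, their 3 most alike genes, the neighbours in the order of falls, list members with the largest rise or fall, overlapping genes and cell type markers. Each result was repeated at a pseudocount of 0.1, without the filter, at a minimum of 2, at thresholds of 0.5 and 1, with centring, in each AAI mouse alone and against other references. Simulated data with 200 changed genes were used to test the counting. Spans come from GENCODE M21 and promoters from RefSeq GRCm38.p6, and a promoter of *Gramd1b* was not used here. Python 3.11.15, numpy 2.4.6, pandas 2.3.3 and matplotlib 3.10.9 were used.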

Additional observations from a re-analysis of the deposited data

Results flagged for a closer look

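These results stand out because an effect had opposite directions in 2 clusters, genotypes or conditions. With 1 mouse per condition none of these differences was tested. For *Fhit*, AAI minus no injury in the control and hKLF6OE genotypes was -2.05 and -1.60 in PT-S3-1, -0.59 and -0.20 in PT-S1-S2-2, -1.03 and -0.50 in PT-S3-2 and -2.77 and -2.36 in PT-S3-3, but 0.12 and 0.69 in PT-S1-S2-1. For *Rnf24* it was -0.026 and -0.77 in PT-S3-1, but 0.27 and 0.20 in PT-S1-S2-1, 1.13 and 0.17 in PT-S3-2 and 0.60 and 0.53 in PT-S3-3.

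Between genotypes, AAI minus no injury for *Rnf24* in InjuredPT-A was -1.03 in control and 0.24 in hKLF6OE, and the uninjured columns of that cluster have the many genes at 0 given above. In the mean of the normal clusters, hKLF6OE minus control was 0.25 without injury and -0.50 with AAI for *Rnf24*, -0.31 and 0.14 for *Fhit*, and -0.29 and 0.35 for *Gpm6a*. Some of these values are under the threshold of 0.2.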

How the results depend on the processing

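The 5 genes lower in InjuredPT-A were 4 without PT-S3-2 and with the median of the normal clusters in place of their mean, each losing *Rnf24*, and 4 against the PT-S3 clusters alone, losing *Fhit* at -0.78 and -0.19. In InjuredPT-B they were 3 with the median, losing *Gramd1b* and *Rnf24*, 4 at a threshold of 1, losing *Snx29*, and 4 against the uninjured mouse, losing *Gramd1b* at -0.77 and -0.09. With the median the differences of the hKLF6OE AAI mouse turned to 0.54 for *Rnf24* in InjuredPT-A, and to 0.39 for *Gramd1b* and 0.034 for *Rnf24* in InjuredPT-B, and AAI minus no injury for *Rnf24* in the control genotype turned from 0.90 to -0.026. The genes lower with AAI in the normal clusters, 2 in each genotype, were 0 at a threshold of 1 in control, and 1 at 0.5 and 0 at 1 in hKLF6OE. The 3 genes lower in uninjured hKLF6OE were 0 at 0.5 and at 1, lost *Gpm6a* without PT-S3-2, and with the median lost *Gpm6a* and gained *Gramd1b*, which turned to -0.21. The 1 gene lower in hKLF6OE with AAI was 0 at 0.5, at 1 and without PT-S3-2, and 2 with the median. Of the 15 genes most alike, 6 stayed over 92 columns and 2 by Spearman's rho. Of the single-gene differences under alternatives, 205 kept near their value, 111 moved and 4 were classed as reversed. More changes of sign than these are named above. Among them is that of *Gramd1b* in uninjured hKLF6OE, whose difference was under the threshold in the main setting. The causes were not tested. No paired analysis was possible because the conditions compared share fewer than 2 replicate numbers. A fit of AAI with genotype as a second term, with 1 residual degree of freedom, was not made. The number of nuclei behind a value limits it and is not known.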

Other observations

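Outside the proximal tubule, AAI minus no injury passed the filter for both genotypes in 72 of 80 pairs of gene and cluster, and in 13 it passed 0.2 in opposite directions in control and hKLF6OE. Over all genes, 12.6% of such pairs were opposed. Of the 13, 9 of 19 tested were in LH-AL-3, LH-DL, MC or macrophages, where 24.8% of pairs over all genes were opposed and 36.4% to 63.4% of genes were at 0. *Gramd1b* in LH-AL-3 was -0.44 in control and 1.51 in hKLF6OE, *Rnf24* in the same cluster 1.66 and -0.60, and *Snx29* in LH-DL -1.03 and 0.38. These differences were not tested.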
